A study of Mus musculus with 20 samples.

Results

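Epithelial cells are held together by adherens junctions, built on cadherins, and by tight junctions, built on claudins and occludin. The 9 genes described here belong to those structures in mouse skin: Cdh1, Cdh3, Cldn1, Cldn4, Cldn8, Ocln, Marveld3, Tjp1 and Tjp3. They were taken by symbol from a count table of 51123 gene identifiers, and each of the 9 was measured in all 20 libraries. The genes were chosen as a named set, with earlier results of these data known. All 9 passed the filter on low counts in every fit, so no member is missing from a count below.

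The RNA came from tdTomato-positive cells sorted from epidermis or from spontaneous cutaneous squamous cell carcinomas (cSCC), and 5 ng per sample went into a stranded total RNA library. Young epidermis, from mice of 100 to 120 days, was wild type (WT, n = 3), Wwox fl/fl with K14cre (WKO, n = 3), p53 fl/fl with K14cre (PKO, n = 3) or Wwox fl/fl and p53 fl/fl with K14cre (DKO, n = 3). Old WT epidermis came from mice of at least 400 days (n = 2). The tumours came from K14cre mice with floxed p53 (PKO cSCC, n = 3) or with floxed Wwox and p53 together (DKO cSCC, n = 3), and the labels give no age for them. K14cre drives recombination in keratinocytes and other keratin 14 lineages, and the labels name no Cre for the WT mice although their cells were also sorted as tdTomato-positive. The labels call the libraries of a group biological replicates. The series title connects Wwox loss in cSCC with the epithelial to mesenchymal transition (EMT), a change of state in which epithelial cells lose E-cadherin and gain migratory traits.

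E-cadherin (Cdh1) is the main cadherin between keratinocytes, and P-cadherin (Cdh3) is its relative in the basal layer and hair follicle. Claudins form the paracellular seal, which in epidermis lies in the granular layer: claudin 1 (Cldn1) is required for the water barrier of mouse skin, claudin 4 (Cldn4) is found in the upper epidermis, and claudin 8 (Cldn8) is best known from kidney tubules. Occludin (Ocln) and Marveld3 are tetraspan proteins of the same strands, and the scaffold proteins ZO-1 (Tjp1) and ZO-3 (Tjp3) tie the strands to actin.

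In young epidermis without Wwox, or without Wwox and p53, most of these genes were higher than in WT young epidermis, and in the carcinomas several of them were lower than in young epidermis of the same genotype. Each comparison was tested with edgeR's quasi-likelihood test, and a gene was called at a Benjamini-Hochberg adjusted p under 0.05 over all genes tested. In WKO against WT young epidermis 5 of 9 members rose (Cdh1, Cldn1, Ocln, Marveld3 and Tjp3) and 0 fell, where 13.1% of all genes tested were called higher, 8.34% lower and 21.4% in either direction. In DKO against WT young epidermis 6 of 9 rose (Cldn4 as well) and 0 fell, where 15.8% of all genes were called higher, 12.1% lower and 27.8% in either direction. The median log2 fold change of the 9 members was 1.89 in WKO and 2.24 in DKO against WT, beside -0.03 and -0.04 for all genes. These comparisons share the WT young libraries, so their similarity is not independent.

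In PKO cSCC against PKO young epidermis 5 of 9 members fell (Cdh1, Cldn4, Ocln, Tjp1 and Tjp3) and 0 rose, where 6.16% of all genes were called lower, 5.33% higher and 11.5% in either direction. In DKO cSCC against DKO young epidermis 4 of 9 fell (Cdh1, Cldn1, Cldn4 and Ocln) and Cdh3 rose, where 4.03% of all genes were called lower, 3.27% higher and 7.3% in either direction. The median log2 fold changes of the members were -1.30 and -1.50, beside -0.02 and 0.05 for all genes. Cdh1, Cldn4 and Ocln fell in both. These comparisons share no library, but both came from the same fit of all 20 libraries, with a shared estimate of the spread. With only the 12 PKO and DKO libraries in the fit, Cdh1 was called in neither (edgeR adjusted p = 0.0729 for PKO and 0.0565 for DKO). Tjp3 was then lost for PKO (edgeR adjusted p = 0.117). Cdh3, Cldn1 and Ocln were lost for DKO (edgeR adjusted p = 0.0715, 0.0565 and 0.0928). Cldn4 stayed called in both and was the only member still called for DKO. Of the lists of other junction genes, taken up below, none had as large a share called lower in the tumours. This difference was not tested, and the members and lists were chosen with earlier results of these data known.

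**Figure D1:**
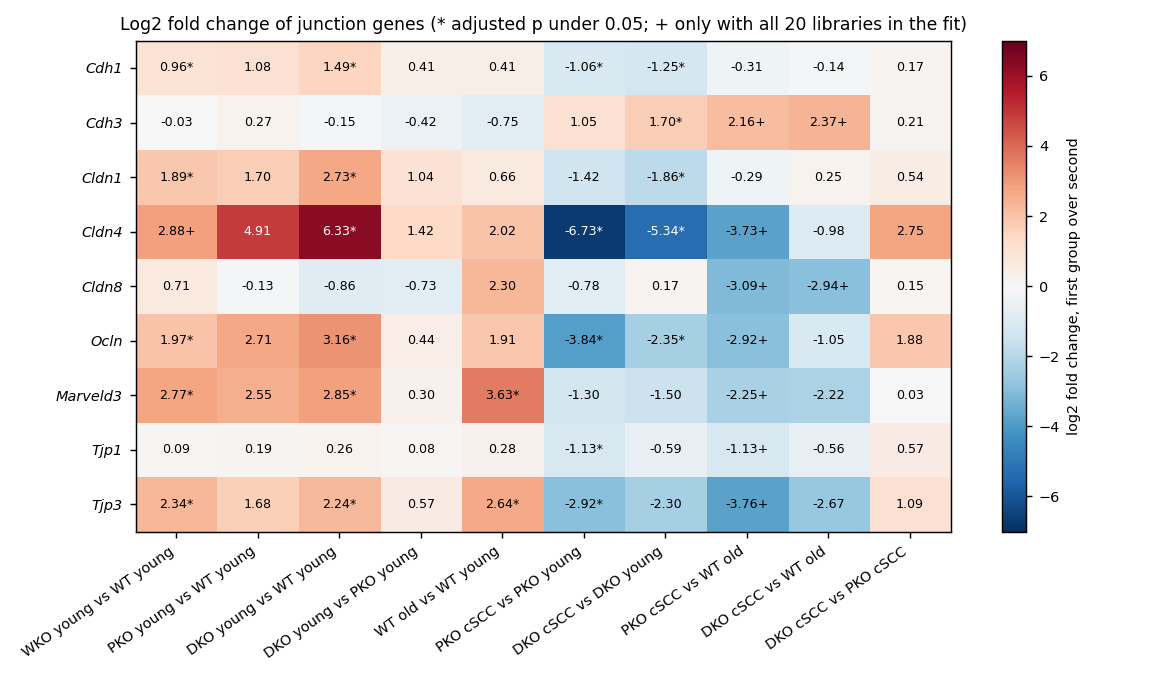
Log2 fold change (first group over second, colour scale and printed values) of the 9 junction genes (rows) in 10 comparisons (columns). A star marks an edgeR adjusted p under 0.05. A plus marks genes that did not pass in the smaller fit of that comparison but passed with all 20 libraries in the edgeR fit, whatever other settings gave. Cldn4 runs from 6.33 in DKO against WT young epidermis to -6.73 in PKO cSCC against PKO young.

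The libraries differed in ways that bear on every comparison. Total counts ran from 11930153 to 17199262 per library. Levels below are CPM (counts scaled by library size), and on that scale Wwox ran from 7.5 to 16.9 in WT and PKO libraries. In WKO and DKO libraries Wwox ran from 0.139 to 1.89 CPM, except for 7.11 in the library labelled DKO young 3. Trp53 stood at 0.872 to 6.03 CPM in 8 of the 12 PKO and DKO libraries, and at 25.3 to 49.4 in the libraries with intact p53. The other values were 45.9 CPM in the library labelled DKO cSCC 3, 20.5 in the library labelled DKO young 3, and 21.4 and 20.4 in PKO young 2 and 3. The libraries labelled DKO young 3 and DKO cSCC 3 therefore go against their labels, and member results that rest on them are given with and without them where the call or direction changes; PKO young 2 and 3 had Trp53 between the 2 ranges, and calls that change without either are named. The Y-linked gene Eif2s3y stood at 20.2 to 24.7 CPM in PKO cSCC and at 0 to 0.126 in PKO young and WT old, so tumour and sex cannot be told apart in the comparisons of PKO cSCC. DKO cSCC libraries 1, 2 and 3 had 0, 26.1 and 24.0 CPM, and all DKO young libraries had 0. Sex thus also differed in part between DKO cSCC and DKO young, WT old or PKO cSCC. The part of sex in those comparisons was not tested. In the WT young reference Eif2s3y stood at 25.4, 1.83 and 0.0565 CPM in libraries 1 to 3, and it was at most 0.126 in the other young libraries, so results without WT young 1 are named where calls change.

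The defining keratinocyte markers were detected in every library, but at unequal levels. Basal keratinocyte markers (7 genes, Krt5 and Krt14 among them) ran, as a sum, from 1584 to 2777 CPM in WT young epidermis, 11587 to 19714 in WKO young and 10663 to 12231 in DKO young. PKO young held 14838, 13737 and 2944 CPM in libraries 1 to 3, so PKO young 3 lay near WT. Markers of differentiated keratinocytes (9 genes, among them Krt10 and Flg) differed as well. Their total lay between 603 and 1474 CPM for the WT young libraries. It lay between 10673 and 14292 CPM for WKO young, and between 14430 and 23542 for DKO young. For PKO young 1, 2 and 3 that total was 4413, 16570 and 1668 CPM. The sum of 8 T cell markers ran from 1875 to 2610 CPM in WT young and reached 3853 in PKO young 3, against 51.9 to 971 in WKO young and 88.8 to 324 in DKO young. The sum of 5 erythrocyte markers ran from 829 to 3487 CPM in WT young and from 2.5 to 33.0 in WKO and DKO young. Fewer keratinocytes and less junction RNA per keratinocyte cannot be told apart in such bulk samples, and the part of these differences in the junction results was not tested.

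**Figure D2:**
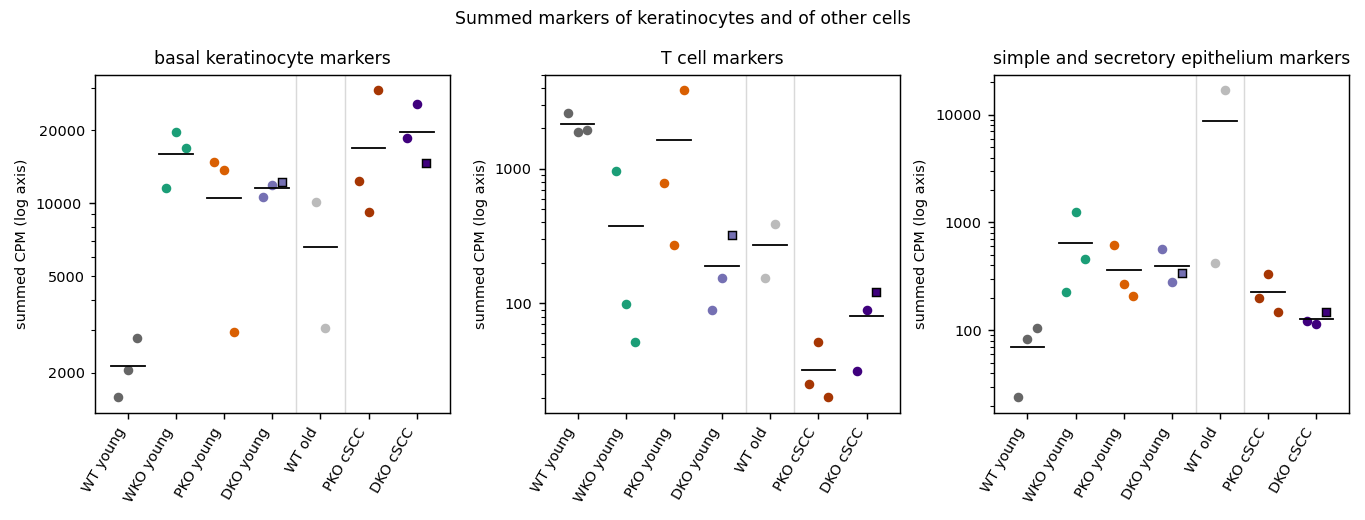
Summed level (CPM after TMM scaling, log axis) of 7 basal keratinocyte markers, 8 T cell markers and 9 simple and secretory epithelial markers, with 1 point per library, a line at the group mean, and squares for the libraries labelled DKO young 3 and DKO cSCC 3. WT young lies lowest for basal keratinocyte markers (1584 to 2777), and WT old 2 stands alone at 16944 for the simple and secretory markers.

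Per kilobase of exon, Cdh1 had the highest group mean of the members in every group but DKO young, from 59.9 CPM per kb in WT young to 128 in PKO young. In DKO young Cldn4 (199 CPM per kb) lay above Cdh1 (166), whereas its group means were 2.51 in WT young, 4.90 in DKO cSCC and 0.705 in PKO cSCC. Averaged over the 20 libraries, Cldn1 stood at 28.6 CPM per kb, Cdh3 at 24.3, Tjp1 at 13.7, Tjp3 at 7.42, Ocln at 5.67, Marveld3 at 3.99 and Cldn8 at 1.65. Tjp1 and Cdh1 varied least, by 3.22-fold and 3.72-fold between their highest and lowest library. Cldn4 varied most, by 3081-fold, from 0.141 CPM (2 counts) in PKO cSCC 1 to 436 in DKO young 1. Cdh1, Cdh3 and Marveld3 lie on chromosome 8, Cldn1 and Cldn8 on chromosome 16.

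**Figure D3:**
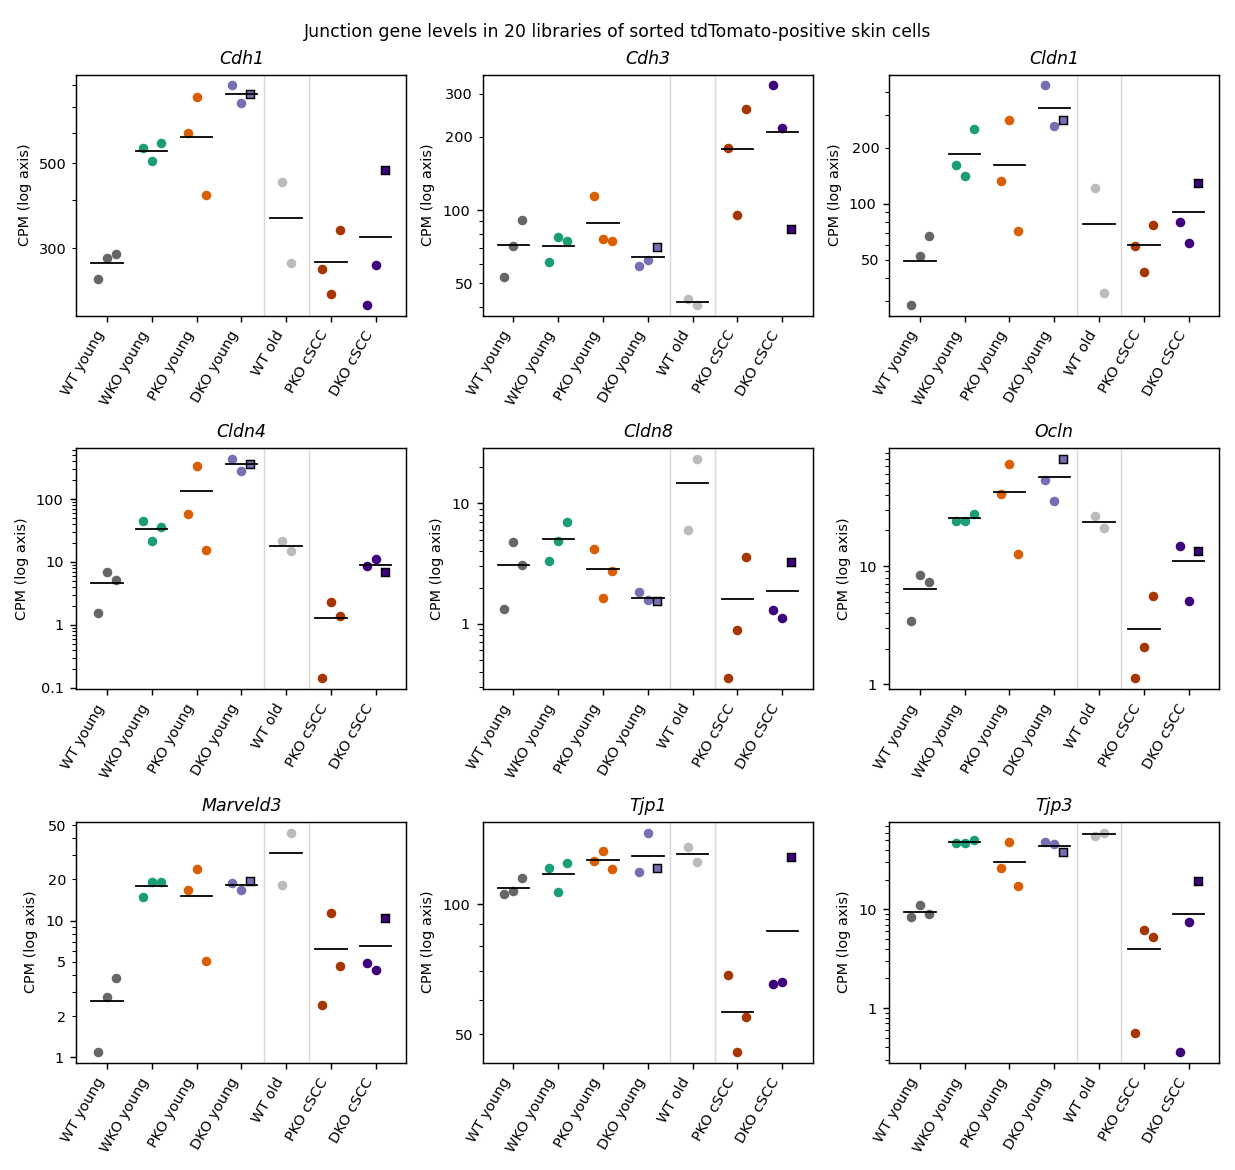
Level of each junction gene (CPM after TMM scaling, log axis) in 20 libraries by group, with 1 point per library, a line at the group mean, and black-edged squares for the libraries labelled DKO young 3 and DKO cSCC 3. Cldn4, Ocln and Tjp3 are high in WKO and DKO young epidermis and low in WT young and in the tumours, whereas Cdh3 has its highest group means in tumours (83.9 to 325 CPM over the 6 libraries).

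Cdh1 (ENSMUSG00000000303) stood at 249, 283 and 289 CPM in WT young epidermis and at 548, 505 and 563 in WKO young. It stood at 598, 742 and 414 CPM in PKO young and at 797, 718 and 757 in DKO young. Every library of the 3 deleted groups lay above every WT young library, and PKO young 3 was the lowest of them. Cdh1 stood at 446 and 274 CPM in WT old, at 265, 228 and 334 in PKO cSCC, and at 214, 271 and 479 in DKO cSCC. Tumour levels thus overlapped both WT ages and lay below young epidermis of their genotype, with the library labelled DKO cSCC 3 the highest tumour.

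By group mean the order for Cdh1 was DKO young, PKO young, WKO young, WT old, DKO cSCC, PKO cSCC and WT young, and the only neighbours whose libraries did not overlap were WKO young and WT old. E-cadherin RNA rose 1.94-fold in WKO against WT young (log2 fold change 0.96 ± 0.22 SE, adjusted p = 0.017) and 2.81-fold in DKO against WT young (1.49 ± 0.22, adjusted p = 0.00614). It fell by 1.06 ± 0.29 on the log2 scale in PKO cSCC against PKO young (adjusted p = 0.0279) and it fell by 1.25 ± 0.29 in DKO cSCC against DKO young (adjusted p = 0.0186). Against WT old the log2 fold change of Cdh1 was -0.31 ± 0.40 in PKO cSCC and -0.14 ± 0.40 in DKO cSCC (edgeR adjusted p = 0.637 and 0.89), with overlapping libraries.

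Cdh3 (ENSMUSG00000061048), the P-cadherin gene, did not follow Cdh1. It stood at 53.1, 71.5 and 91.2 CPM in WT young, 61.0, 77.6 and 74.8 in WKO young, 114, 76.4 and 74.8 in PKO young and 59.2, 62.2 and 70.4 in DKO young. The 4 young groups overlapped except PKO and DKO young, and the log2 fold changes against WT ran from -0.15 to 0.27. It was 43.2 and 40.9 CPM in WT old, 180, 95.4 and 259 in PKO cSCC and 325, 216 and 83.9 in DKO cSCC. Every tumour library lay above both WT old libraries, and the lowest tumour was the library labelled DKO cSCC 3.

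P-cadherin RNA rose 3.26-fold in DKO cSCC against DKO young (log2 fold change 1.70 ± 0.41, adjusted p = 0.022). That call was lost with only the 12 PKO and DKO libraries in the fit (edgeR adjusted p = 0.0715). In PKO cSCC against PKO young the log2 fold change was 1.05 ± 0.40 (edgeR adjusted p = 0.102), and the groups overlapped. Against WT old the log2 fold changes of Cdh3 were 2.16 ± 0.65 in PKO cSCC and 2.37 ± 0.66 in DKO cSCC. Neither passed with 8 libraries in the fit (adjusted p = 0.0982 and 0.239), and both passed with all 20 in the fit (adjusted p = 0.00903 and 0.023).

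The balance of the cadherins within a library, as a ratio of CPM per kilobase, does not depend on library scaling. Cdh3 to Cdh1 was 0.222 to 0.329 in WT young, 0.116 to 0.16 in WKO young, 0.107 to 0.199 in PKO young and 0.0775 to 0.0971 in DKO young. It was 0.101 to 0.156 in WT old, 0.436 to 0.811 in PKO cSCC and 0.183 to 1.58 in DKO cSCC. Cdh1 thus exceeded Cdh3 in 19 of the 20 libraries, all but DKO cSCC 1, and 5 of the 6 tumours lay above every epidermis library. The exception was the library labelled DKO cSCC 3, at 0.183.

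**Figure D4:**
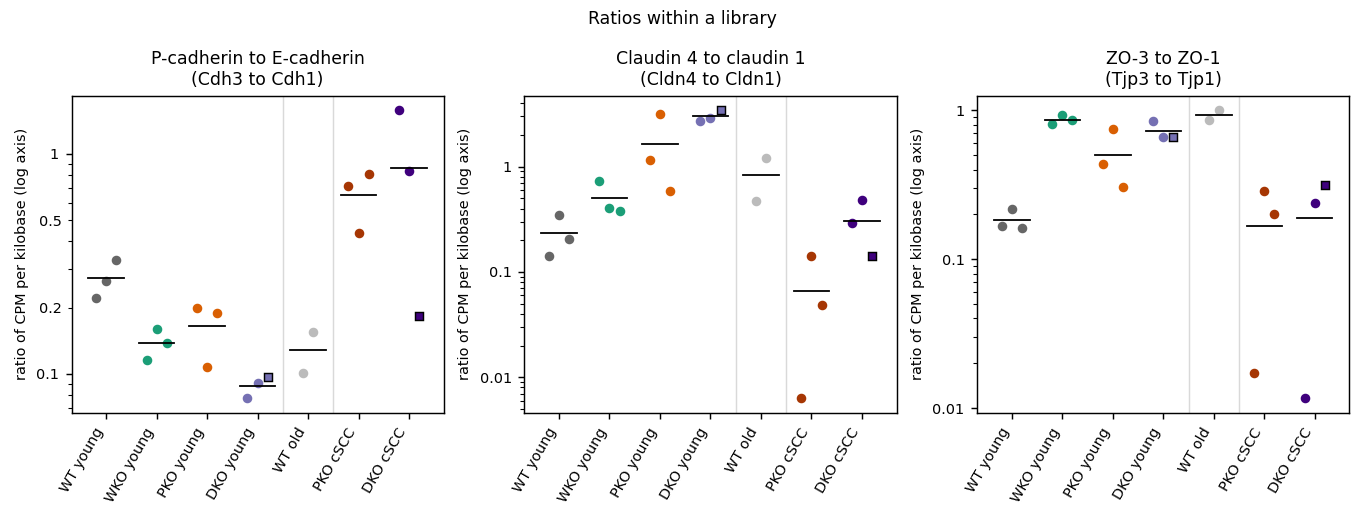
Ratios of CPM per kilobase of exon within each library (log axes) for Cdh3 to Cdh1, Cldn4 to Cldn1 and Tjp3 to Tjp1, with 1 point per library, a line at the group mean, and squares for the libraries labelled DKO young 3 and DKO cSCC 3. Cdh3 to Cdh1 reaches 0.436 to 0.811 in PKO cSCC, and Cldn4 to Cldn1 runs from 2.69 to 3.44 in DKO young and from 0.00632 to 0.142 in PKO cSCC.

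Cldn4 (ENSMUSG00000047501) had the widest range. It stood at 1.54, 6.93 and 5.19 CPM in WT young, 44.2, 21.3 and 35.9 in WKO young, 57.7, 334 and 15.5 in PKO young and 436, 282 and 364 in DKO young. Every deleted young library lay above every WT young library, and PKO young overlapped both WKO and DKO young. It stood at 21.4 and 15.0 CPM in WT old, 0.141, 2.3 and 1.4 in PKO cSCC and 8.62, 11.3 and 6.83 in DKO cSCC. The groups of tumours did not overlap each other, and every tumour library lay below both WT old libraries.

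Claudin 4 RNA was 80.5-fold higher in DKO than in WT young epidermis (log2 fold change 6.33 ± 1.11, adjusted p = 0.00645). In WKO against WT young the log2 fold change was 2.88 ± 0.96 with edgeR adjusted p = 0.0541, and it passed with DESeq2 (adjusted p = 0.00487), with no filter on low counts (0.0219) and with all 20 libraries in the fit (0.0473). Cldn4 fell by 6.73 ± 1.07 on the log2 scale in PKO cSCC against PKO young (adjusted p = 0.00325) and it fell by 5.34 ± 0.99 in DKO cSCC against DKO young (adjusted p = 0.00768). Against WT old the log2 fold change was -3.73 ± 0.85 in PKO cSCC (adjusted p = 0.0659 with 8 libraries in the fit, 0.0159 with all 20) and -0.98 ± 0.80 in DKO cSCC (edgeR adjusted p = 0.577).

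Ocln (ENSMUSG00000021638), for occludin, had the same order of group means as Cldn4: DKO young, PKO young, WKO young, WT old, DKO cSCC, WT young and PKO cSCC. In both genes WT old and DKO cSCC were the only neighbours in that order whose libraries did not overlap. It stood at 3.42, 8.35 and 7.4 CPM in WT young, 24.1, 24.1 and 27.7 in WKO young, 40.7, 72.8 and 12.7 in PKO young and 53.1, 35.1 and 80.0 in DKO young. Again every deleted young library exceeded every WT young library, with PKO young 3 the lowest of them. It stood at 26.3 and 21.0 CPM in WT old, 1.13, 2.07 and 5.58 in PKO cSCC and 14.9, 5.03 and 13.5 in DKO cSCC. All tumours lay below both WT old libraries, and the tumour groups overlapped at 5.03 and 5.58.

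Occludin RNA rose 3.92-fold in WKO (log2 fold change 1.97 ± 0.58, adjusted p = 0.0373) and 8.92-fold in DKO against WT young (3.16 ± 0.60, adjusted p = 0.00768). The WKO call was lost whichever single library was left out, and with all 20 libraries in the fit (edgeR adjusted p = 0.0504). Occludin RNA fell by 3.84 ± 0.68 on the log2 scale in PKO cSCC against PKO young (adjusted p = 0.0049) and it fell by 2.35 ± 0.63 in DKO cSCC against DKO young (adjusted p = 0.0349). Without the libraries labelled DKO young 3 and DKO cSCC 3 the second difference was -2.05 (edgeR adjusted p = 0.116). Over the 20 libraries Pearson's r between Cldn4 and Ocln, on log2(CPM + 0.5), was 0.927, the highest among the 36 pairs of members, given as a description because the libraries share groups and cell makeup.

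The promoters of Cldn4, Ocln and Cldn1 are shown because Cldn4 and Ocln moved together most closely and Cldn1 is the claudin set beside them. RefSeq windows (GRCm38.p6, from 250 bases before to 50 after an annotated start) matched 5 of the 9 members with 7 windows: Cldn1, Cldn4, Ocln (2 starts), Tjp1 and Tjp3 (2 starts). Capitals mark matches, on either strand, to the E-box CAGGTG, the core bound by Snail and Zeb repressors in general, and to the AP-1 motif TGANTCA; no match overlaps another. All windows lie on the minus strand and read 5′ to 3′ along the gene: Cldn4 chr5:134946885-134947184, Ocln start 2 chr13:100552449-100552748 and Cldn1 chr16:26371790-26372089.
Cldn4: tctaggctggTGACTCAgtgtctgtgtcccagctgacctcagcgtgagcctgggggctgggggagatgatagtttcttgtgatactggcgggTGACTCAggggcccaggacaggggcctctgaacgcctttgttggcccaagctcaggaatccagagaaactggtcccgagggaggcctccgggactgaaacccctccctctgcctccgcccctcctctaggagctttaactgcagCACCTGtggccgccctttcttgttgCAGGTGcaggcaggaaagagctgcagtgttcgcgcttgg
Ocln: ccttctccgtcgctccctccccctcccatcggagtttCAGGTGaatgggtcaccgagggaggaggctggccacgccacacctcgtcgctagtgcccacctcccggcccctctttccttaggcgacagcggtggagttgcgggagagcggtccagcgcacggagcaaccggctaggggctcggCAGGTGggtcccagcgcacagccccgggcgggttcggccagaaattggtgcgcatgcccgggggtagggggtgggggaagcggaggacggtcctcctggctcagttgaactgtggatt
Cldn1: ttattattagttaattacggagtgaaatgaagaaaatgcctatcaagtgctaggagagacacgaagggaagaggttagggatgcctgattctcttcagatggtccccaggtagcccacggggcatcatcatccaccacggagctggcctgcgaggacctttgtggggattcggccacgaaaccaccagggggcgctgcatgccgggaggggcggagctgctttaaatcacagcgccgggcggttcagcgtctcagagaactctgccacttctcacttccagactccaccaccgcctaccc

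The Cldn4 window held 2 E-boxes, 14 bases before and 12 bases after the start, and 2 AP-1 matches, 240 and 158 bases before it. Among 32851 promoter windows of the same length, 2.88% held at least 2 E-boxes and 0.46% at least 2 AP-1 matches. The windows of Ocln, which overlap, held 1 and 2 E-boxes, of which the site 8 bases after start 1 is the one 213 bases before start 2, so there were 2 distinct sites. Those of Tjp3 held 1 each and those of Cldn1 and Tjp1 none, where 20.2% of all windows held at least 1. AP-1 was matched in 7.81% of all windows and, among the members, in Cldn4 alone. AACCGGTT, a motif of grainyhead-like factors, was in 0.146% of all windows and in none of the 7. These are matches of letters and say nothing of binding.

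Cldn1 (ENSMUSG00000022512) stood at 28.8, 52.8 and 66.9 CPM in WT young, 161, 141 and 253 in WKO young, 133, 280 and 71.3 in PKO young and 431, 261 and 281 in DKO young. DKO young did not overlap WKO young, and PKO young 3 lay just above the highest WT young library. It stood at 122 and 33.1 CPM in WT old, 59.6, 43.1 and 76.8 in PKO cSCC and 79.4, 61.9 and 130 in DKO cSCC, and these 3 groups overlapped. Claudin 1 RNA rose 3.7-fold in WKO (log2 fold change 1.89 ± 0.50, adjusted p = 0.0278) and 6.65-fold in DKO against WT young (2.73 ± 0.52, adjusted p = 0.00766). It fell by 1.86 ± 0.53 on the log2 scale in DKO cSCC against DKO young (adjusted p = 0.0457), and the difference was -2.19 without the libraries labelled DKO young 3 and DKO cSCC 3 (edgeR adjusted p = 0.0596). In PKO cSCC against PKO young its log2 fold change was -1.42 ± 0.53 (edgeR adjusted p = 0.089).

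Relative to Cldn1, Cldn4 was lower in every tumour library than in every young library of the same genotype. The ratio of Cldn4 to Cldn1 per kilobase was 2.69 to 3.44 in DKO young and 0.14 to 0.485 in DKO cSCC. It was 0.58 to 3.18 in PKO young and 0.00632 to 0.142 in PKO cSCC, 0.143 to 0.35 in WT young, 0.378 to 0.733 in WKO young and 0.468 to 1.21 in WT old. Cldn4 was thus above Cldn1 per kilobase in all DKO young libraries and below it in all WT young, WKO young and tumour libraries.

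Cldn8 (ENSMUSG00000050520) was scarce and ordered differently. It stood at 1.32 to 4.75 CPM in WT young, 3.31 to 6.95 in WKO young, 1.65 to 4.15 in PKO young and 1.54 to 1.84 in DKO young. The WT old libraries had 6.07 and 23.4 CPM, with 0.353 to 3.61 in PKO cSCC and 1.13 to 3.24 in DKO cSCC. Cldn8 was called in none of the comparisons above. Its highest level was in WT old 2, the library with 16944 CPM of simple and secretory epithelial markers (419 in WT old 1), 66.0 CPM of Cldn3 and 18.4 CPM of Cldn7. The part of those cells in the Cldn8 level was not tested. The log2 fold change against WT old was -3.09 ± 1.01 in PKO cSCC and -2.94 ± 1.01 in DKO cSCC (edgeR adjusted p = 0.109 and 0.279), and these passed with all 20 libraries in the fit (0.0135 and 0.0495).

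Marveld3 (ENSMUSG00000001672) stood at 1.1, 2.78 and 3.84 CPM in WT young, 14.8, 19.3 and 19.3 in WKO young, 16.7, 23.8 and 5.07 in PKO young and 18.8, 16.7 and 19.5 in DKO young. The WT old libraries had 18.4 and 44.1 CPM, with 2.4, 11.4 and 4.65 in PKO cSCC and 4.93, 4.35 and 10.4 in DKO cSCC. WT young was the lowest group by mean, and all young and old groups other than WT young lay above it. Marveld3 rose 6.82-fold in WKO (log2 fold change 2.77 ± 0.56, adjusted p = 0.0137), 7.21-fold in DKO (2.85 ± 0.56, adjusted p = 0.00812) and 12.3-fold in WT old against WT young (3.63 ± 0.63, adjusted p = 0.0313). The higher WT old library, WT old 2, is the one high in simple and secretory epithelial markers. Without it the WT old log2 fold change was 2.83, and the part of those cells was not tested. Tumours against young epidermis of their genotype did not pass the test: the log2 fold changes were -1.30 ± 0.61 for PKO and -1.50 ± 0.61 for DKO (edgeR adjusted p = 0.174 and 0.142).

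The scaffold genes differed from each other. Tjp1 (ENSMUSG00000030516) was even across epidermis, at 106, 107 and 115 CPM in WT young, 121, 107 and 125 in WKO young, 126, 133 and 121 in PKO young, 119, 147 and 122 in DKO young and 136 and 126 in WT old. In tumours it stood at 68.7, 45.5 and 54.8 CPM in PKO cSCC and at 65.4, 65.8 and 129 in DKO cSCC. Of the 6 tumours, 5 lay below all 14 epidermis libraries, and the exception was the library labelled DKO cSCC 3. ZO-1 RNA fell by 1.13 ± 0.23 on the log2 scale in PKO cSCC against PKO young (adjusted p = 0.00865). In DKO cSCC against DKO young its log2 fold change was -0.59 ± 0.23 (edgeR adjusted p = 0.122), and -0.91 without the libraries labelled DKO young 3 and DKO cSCC 3 (adjusted p = 0.0224).

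Tjp3 (ENSMUSG00000034917), for ZO-3, stood at 8.38, 11 and 8.92 CPM in WT young, 46.8, 47.4 and 50.8 in WKO young, 26.3, 47.7 and 17.4 in PKO young and 47.9, 46.0 and 38.1 in DKO young. Every deleted young library exceeded every WT young library. It stood at 55.7 and 59.9 CPM in WT old, 0.565, 6.2 and 5.23 in PKO cSCC and 0.362, 7.43 and 19.4 in DKO cSCC. WT old lay above all other groups, and the first library of each tumour group was the lowest of all. The ratio of Tjp3 to Tjp1 per kilobase ran from 0.81 to 0.932 in WKO young, 0.163 to 0.216 in WT young, 0.0173 to 0.286 in PKO cSCC and 0.0116 to 0.317 in DKO cSCC.

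ZO-3 RNA rose 5.06-fold in WKO (log2 fold change 2.34 ± 0.33, adjusted p = 0.0126), 4.73-fold in DKO (2.24 ± 0.33, adjusted p = 0.00614) and 6.22-fold in WT old against WT young (2.64 ± 0.33, adjusted p = 0.0181). With all 20 libraries in the fit these 3 calls were lost (adjusted p = 0.0737, 0.0712 and 0.139). Tjp3 fell by 2.92 ± 0.86 on the log2 scale in PKO cSCC against PKO young (adjusted p = 0.0391). In DKO cSCC against DKO young the log2 fold change was -2.30 ± 0.84 (edgeR adjusted p = 0.101), and without the libraries labelled DKO young 3 and DKO cSCC 3 it was -3.48 (adjusted p = 0.0483).

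The count of members called depended on single libraries in WKO against WT young. Leaving out WT young 1, WT young 2 or WKO young 3 left 2 members called, leaving out WKO young 2 left 3, and leaving out WKO young 1 or WT young 3 left 4. Tjp3 and Marveld3 passed each time, and Ocln was lost each time. In DKO against WT young the same 6 members passed whichever library was left out, the library labelled DKO young 3 included. Cdh3, Cldn8 and Tjp1 passed in neither comparison, and the log2 fold change of Tjp1 was 0.09 ± 0.13 in WKO and 0.26 ± 0.13 in DKO.

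In PKO against WT young epidermis 0 of 9 members were called, where 0.00601% of all genes were (1 of 16627); 4174 genes, 6 of them members, had an unadjusted p under 0.05. The log2 fold changes were 1.08 ± 0.22 for Cdh1, 1.70 ± 0.50 for Cldn1, 4.91 ± 1.04 for Cldn4, 2.71 ± 0.59 for Ocln, 2.55 ± 0.56 for Marveld3 and 1.68 ± 0.32 for Tjp3. The edgeR adjusted p was 0.0539 for these genes other than Cldn1, where it was 0.0792. The libraries did not overlap those of WT for 7 of 9 members, beside 28.1% of all genes tested. These were the 6 named and Tjp1 (log2 fold change 0.19 ± 0.13). With DESeq2 (2327 genes called), with no filter on low counts (990) and without PKO young 3 (2998), Cdh1, Cldn1, Cldn4, Ocln, Marveld3 and Tjp3 were called. PKO young 3 is the library with 2944 CPM of basal keratinocyte and 3853 CPM of T cell markers.

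In DKO against PKO young epidermis, which varies Wwox among p53-deleted mice, 0 of 9 members and 0 of 16627 genes (0%) were called by edgeR; 2742 genes, none of them members, had an unadjusted p under 0.05, and DESeq2 called 328 genes and no member. Log2 fold changes of the members ran from -0.73 ± 0.50 for Cldn8 to 1.42 ± 0.89 for Cldn4. Cdh1 differed by 0.41 ± 0.22 and Cldn1 by 1.04 ± 0.49. Without PKO young 2, Cldn4 and Tjp3 were called higher in DKO among 403 genes.

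WT old against WT young epidermis gave 2 of 9 members called higher, Marveld3 and Tjp3, and 0 lower, where 1.73% of all genes were called higher, 0.261% lower and 1.99% in either direction. The log2 fold changes were 1.91 ± 0.59 for Ocln, 2.30 ± 0.62 for Cldn8 and 2.02 ± 0.95 for Cldn4 (edgeR adjusted p = 0.0978, 0.0683 and 0.23). Both calls were lost when WT young 1, 2 or 3 was left out, Marveld3 was lost without WT old 2, and Cldn8 was gained without WT old 1. Only 2 old libraries were available, and basal keratinocyte markers summed to 10176 and 3060 CPM in them.

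The calls between tumours and young epidermis held for some members whichever library was left out. For PKO, Cldn4, Ocln and Tjp1 passed each time. Cdh1 and Tjp3 were both lost without PKO cSCC 1, PKO young 1 or PKO young 2 (3 members left), Cdh1 was lost and Cdh3 gained without PKO cSCC 2 (5), Tjp3 was lost without PKO cSCC 3 (4), and Cldn1 was gained without PKO young 3 (6). For DKO, Cldn4 alone passed each time: 1 member was left without DKO cSCC 1, DKO cSCC 2 or DKO young 1, 2 without DKO young 2 and 3 without DKO young 3, while 6 passed without DKO cSCC 3. Without both libraries that go against their labels 5 members passed: Cdh1, Cdh3, Cldn4, Tjp1 and Tjp3.

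Keratinocyte markers moved with the tumours as well. Basal keratinocyte markers summed to 9252 to 29407 CPM in PKO cSCC and 14740 to 25793 in DKO cSCC, and none of the 7 was called in either comparison with young epidermis. Differentiated keratinocyte markers (9 genes, such as Krt10 and Flg) summed to 743, 172 and 1935 CPM in PKO cSCC against 4413, 16570 and 1668 in PKO young, with 3 of 9 called lower. They summed to 540, 2601 and 14710 CPM in DKO cSCC against 23542, 17766 and 14430 in DKO young, with 1 of 9 called lower. The library labelled DKO cSCC 3 was the highest tumour both in these markers and in Cdh1, Cldn1, Tjp1 and Tjp3. T cell markers were called lower for 8 of 8 genes in PKO cSCC against PKO young and for 0 of 8 in DKO cSCC against DKO young. Without the libraries labelled DKO young 3 and DKO cSCC 3 the DKO counts were the same for these 3 marker lists. The part of these marker differences in the junction results was not tested.

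Against WT old epidermis, with 8 libraries in the fit, 0 of 9 members were called in PKO cSCC, where 0.0121% of genes were (2 of 16526), and 0 of 9 in DKO cSCC, where 0% were. Unadjusted p was under 0.05 for 7 and 3 members and for 4581 and 2402 genes. With all 20 libraries in the fit, Cdh3 rose and Cldn4, Cldn8, Ocln, Marveld3, Tjp1 and Tjp3 fell in PKO cSCC, where 21.3% of all genes were called, and DESeq2 called the same 7 members among 3031 genes. In DKO cSCC the 20-library fit called Cdh3 higher and Cldn8 lower (4.34% of all genes), and DESeq2 called Cdh3 higher and Marveld3 lower among 841 genes. The libraries did not overlap for 7 of 9 members in PKO cSCC, beside 45% of all genes tested, and for 6 of 9 in DKO cSCC, beside 34.7%, and both comparisons share the same 2 WT old libraries.

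The difference between the carcinomas, DKO against PKO, addresses Wwox in tumours. By edgeR 0 of 9 members were called, where 0.00605% of all genes were (1 of 16526); 1338 genes, 2 of them members, had an unadjusted p under 0.05. All 9 log2 fold changes were above 0, with a median of 0.54 beside -0.03 for all genes, and the largest were Cldn4 (2.75 ± 0.78, adjusted p = 0.608), Ocln (1.88 ± 0.65, adjusted p = 0.608) and Tjp3 (1.09 ± 1.14, edgeR adjusted p = 0.82). For Cdh1 it was 0.17 ± 0.36 and for Cdh3 0.21 ± 0.54. Cldn4 was the 1 of 9 members whose tumour groups did not overlap, beside 14% of all genes tested, and it was called by DESeq2 (2.81, adjusted p = 0.0189) and with no filter on low counts (2.77, adjusted p = 0.0157), which called 200 and 375 genes.

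That direction was not stable for several members. It changed for Cdh3 without DKO cSCC 1 or PKO cSCC 2, and for Cldn8 without PKO cSCC 1 or PKO cSCC 2. For Marveld3 it changed without PKO cSCC 1 or PKO cSCC 3. The direction also rested on the library labelled DKO cSCC 3 for several members. Without it the log2 fold changes were -0.19 for Cdh1, -0.42 for Cldn8, -0.06 for Tjp3 and -0.42 for Marveld3. Endothelial markers (7 genes) summed to 334 CPM in that library against at most 50.9 in the other tumours, melanocyte markers (5 genes) to 517 against at most 157, and the endothelial claudin gene Cldn5 stood at 8.63 CPM against 0 to 1.5. A test of whether the DKO to PKO difference itself differed between tumours and young epidermis called 0 of 9 members and 0% of 18164 genes, with 2296 genes and no member at an unadjusted p under 0.05. Its largest value among the members was 1.49 ± 0.86 for Ocln (edgeR adjusted p = 0.504).

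Other genes of the same structures were followed in lists chosen with earlier results of these data known. Of 20 other adherens junction genes, 12 rose and 1 fell in WKO against WT young and 14 rose and 1 fell in DKO (12 and 1 without the library labelled DKO young 3). Among all genes tested, 13.1% were called higher and 8.34% lower in WKO, and 15.8% and 12.1% in DKO. In both, Jup (plakoglobin) rose, by 2.03 ± 0.38 and 2.49 ± 0.38 on the log2 scale, as did Camsap3, which anchors microtubule minus ends at junctions, by 2.51 ± 0.49 and 2.81 ± 0.49. Nectin2, an immunoglobulin-type adhesion molecule, rose by 3.61 ± 0.62 and Ctnna1, for alpha-catenin, by 1.19 ± 0.22 in DKO. Ctnnbip1 (1.33 ± 0.29) and Limd1 (0.71 ± 0.16) also rose in WKO.

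Of 27 other tight junction genes, 16 rose in WKO and 17 in DKO against WT young, and 0 fell in either; without the library labelled DKO young 3, 16 rose and 3 fell in DKO. The polarity gene Crb3 rose by 2.70 ± 0.51 in WKO and 3.74 ± 0.53 in DKO on the log2 scale. Lsr (1.55 ± 0.32), which marks tricellular contacts, F11r (1.80 ± 0.37), for junctional adhesion molecule A, and Pard6g (1.79 ± 0.39) rose in WKO. Mpp5 (1.64 ± 0.25) and Pard6b (3.12 ± 0.50) rose in DKO. The median log2 fold change of this list was 1.10 in WKO, and those of the adherens list were 1.05 in WKO and 1.16 in DKO. Basal keratinocyte markers were called higher for 7 of 7 genes in each of the same comparisons, and for 6 of 7 in DKO without that library.

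Cadherins and claudins outside the 9 genes gave few calls. Of 8 other cadherins tested, Cdh13 (2.17 ± 0.52) and Cdh4 (3.24 ± 0.80) rose and Cdh15 fell by 4.13 ± 1.29 on the log2 scale in WKO. In DKO, Cdh2, for N-cadherin, fell by 4.56 ± 1.17, from a mean of 5.71 CPM in WT to 0.256, and Cdh6 fell by 3.75 ± 1.01; without the library labelled DKO young 3 the edgeR adjusted p of Cdh6 was 0.0556. Of 7 other claudins tested, Cldn23 rose in WKO (2.40 ± 0.73) and in DKO (2.69 ± 0.74), and Cldn10 fell by 2.69 ± 0.54 in DKO. Symbols for 20 of the 22 other claudins were found in the table, and most of the 20 were too low to test.

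In PKO cSCC against PKO young, 1 of 20 other adherens genes rose and 4 fell, and 2 of 27 other tight junction genes rose and 3 fell. Among all genes tested, 5.33% were called higher and 6.16% lower there. The nectins Nectin4 (log2 fold change -3.08 ± 0.49) and Nectin2 (-2.17 ± 0.49) fell, as did Camsap3 (-2.39 ± 0.57), while Lima1, an actin-binding protein of junctions, rose by 0.85 ± 0.23. Marveld2 (-3.23 ± 0.45), for tricellulin, Pard6b (-2.12 ± 0.45) and Cgn (-3.1 ± 0.78), for cingulin, fell, and the scaffold gene Mpdz rose by 1.13 ± 0.31. Of 9 other claudins tested, Cldn23 fell by 3.02 ± 0.70. The median log2 fold changes of the adherens and tight junction lists were -0.35 and -0.21, nearer 0 than that of the 9 members (-1.30).

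In DKO cSCC against DKO young, 1 of 20 adherens genes rose and 3 fell, and 1 of 27 tight junction genes rose and 4 fell. Among all genes tested, 3.27% were called higher and 4.03% lower there. Nectin2 (-2.35 ± 0.50), Nectin4 (-1.83 ± 0.47) and Epb41l5 (-2.16 ± 0.43) fell, and Lima1 rose by 0.80 ± 0.23. Pard6b (-2.60 ± 0.46), Mpp5 (-1.17 ± 0.25) and Marveld2 (-1.98 ± 0.43) fell, and Mpdz rose by 1.31 ± 0.32. Without the libraries labelled DKO young 3 and DKO cSCC 3, 0 adherens genes rose and 4 fell, and again 1 tight junction gene rose and 4 fell; of the genes named, Lima1 was no longer called (0.96 ± 0.30, edgeR adjusted p = 0.0636). Nectin2, Nectin4, Marveld2 and Pard6b thus fell, and Lima1 and Mpdz rose, in both tumour comparisons, which share no library but came from the same fit.

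**Figure D5:**
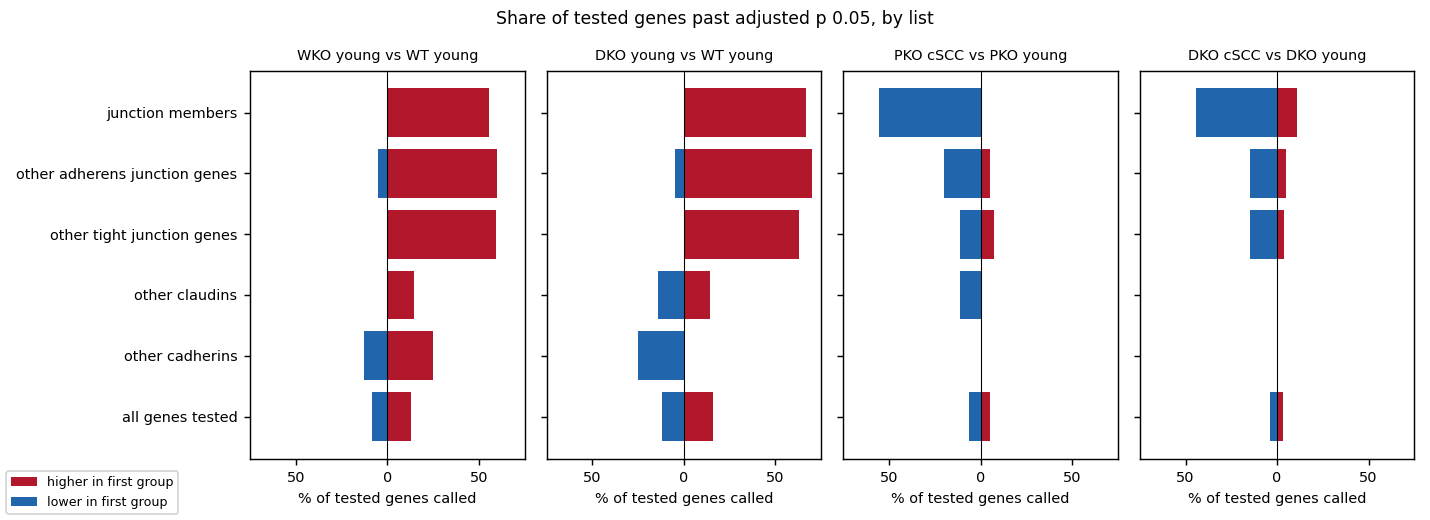
Share of tested genes (percent, horizontal axis, higher to the right and lower to the left) past an edgeR adjusted p of 0.05 in each junction list and among all genes tested, for 4 comparisons. Among the 9 members 55.6% were called lower in PKO cSCC against PKO young and 44.4% in DKO cSCC against DKO young, beside 6.16% and 4.03% of all genes.

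Of 6 genes for transcriptional repressors of cadherins (Snai1, Snai2, Zeb1, Zeb2, Twist1 and Twist2), Snai2, for Slug, was the 1 called in each tumour comparison with young epidermis. It rose by 1.79 ± 0.41 on the log2 scale in PKO cSCC (from a mean of 18.2 to 61.7 CPM, adjusted p = 0.0141) and by 1.43 ± 0.40 in DKO cSCC (from 18.5 to 49.9 CPM, adjusted p = 0.0432). It also rose by 1.19 ± 0.37 in WKO against WT young (adjusted p = 0.0431), where Cdh1 rose as well. None of the 6 was called in DKO against WT young, where the log2 fold change of Zeb2 was -3.58 ± 1.46 (edgeR adjusted p = 0.0909). Without the library labelled DKO young 3, 2 of the 6 were called lower there, Zeb2 among them (-6.77 ± 1.59, adjusted p = 0.0194), and without both libraries that go against their labels Snai2 stayed called in DKO cSCC against DKO young (1.73 ± 0.48, adjusted p = 0.042).

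In WT old against WT young, 4 of 27 other tight junction genes rose and 0 fell: Cgn (3.5 ± 0.59), Patj (1.82 ± 0.35), Cgnl1 (2.97 ± 0.61) and Magi1 (2.23 ± 0.49), and 0 of 20 adherens genes were called. Among all genes tested, 1.73% were called higher and 0.261% lower there. Cgnl1 stood at 82.3 CPM in WT old 1 and 288 in WT old 2, the library high in simple and secretory epithelial markers. In the 8-library comparisons of the tumours, 0 genes of these lists were called. With all 20 libraries in the fit, 3 adherens genes of 20 were called higher and 4 lower in PKO cSCC against WT old, and 1 tight junction gene higher and 4 lower, beside 21.3% of all genes. In DKO cSCC against WT old that fit called 1 adherens gene higher and 1 tight junction gene lower, beside 4.34% of all genes.

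Across the 20 libraries the members fell into unlike patterns. Cdh1 and Cldn1 had r = 0.922, and Cdh1 with Cldn4 and Ocln had 0.867 and 0.843, whereas Cdh3 ran against Tjp3 (r = -0.793) and Tjp1 (r = -0.742). Among 10280 other genes ranked by Pearson's r over the 20 libraries, those nearest to Cdh1 were Rnf208 (0.949), Cebpa (0.944) and Vat1 (0.936). Nearest to Cldn4 were Pim3 (0.951), Pard6b (0.941) and Ovol1 (0.928), and nearest to Ocln were Bbox1 (0.942), Dsg1a (0.929) and Ly6g6e (0.925). Cdh3 was nearest to Cks2 (0.931), Bnc1 (0.928) and Zwilch (0.922). Tjp3 was nearest to Abhd14b (0.955), Krt77 (0.936) and Scnn1a (0.935), Marveld3 to Gstt3 (0.931), Eps8l2 (0.927) and Tmem184a (0.916), and Tjp1 to Ints6l (0.917), Slc16a10 (0.908) and Zfp667 (0.904). For Cldn8 the nearest were Vwa8 (0.918), Myo5c (0.847) and Fam160a2 (0.844). These correlations describe libraries that share groups, depth and cell makeup, and carry no test.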

How the data were processed

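RNA was measured in 20 libraries of sorted tdTomato-positive mouse skin cells in 7 groups. As deposited, the values are estimated counts per gene in whole numbers, in a single table whose sample columns were all used. Salmon 0.13.1, Trim Galore 0.4.1 and build mm39 appear in the submitters' processing notes without a stated role. The sources used here do not give the annotation release, or whether strand or molecular identifiers entered the counting. Estimated counts split reads between similar transcripts, so levels of near-identical copies and overlapping genes are uncertain.

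Genes were filtered with filterByExpr, scaled by TMM and tested with the quasi-likelihood F test of edgeR 4.0.16 in R 4.3.3, and p-values were adjusted by Benjamini-Hochberg over all genes tested, with a threshold of 0.05. Fits held 12 libraries for young epidermis, 8 for tumours and old WT, 14 for age, and all 20 for tumours against young epidermis and the difference of differences. Levels are CPM after TMM scaling over 20 libraries. Values printed after ± are SE of log2 fold changes, derived as the absolute log2 fold change over the square root of the quasi-likelihood F. Levels per kilobase use the union of exons in GENCODE M21 (GRCm38), which differs from mm39 and served for names, lengths and chromosomes only; 48246 of 51123 identifiers had a symbol. With 11930153 to 17199262 counts per library, a member near 1 CPM rests on few counts and its level is imprecise. The smallest exact permutation p for 3 against 3 libraries is 0.1, so only fits across all genes were used. Replicates of a group differed far beyond sampling noise and none was counted as a duplicate.

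The members and lists were chosen with earlier results of these data known. From each list up to 4 called genes with the smallest p were named per comparison (or the 1 gene with the smallest p where none was called), Wwox and Trp53 always, and for each member the 3 genes of highest Pearson r on log2(CPM + 0.5) among genes with a mean of at least 5 CPM. Some genes that this rule names are not reported here. Alternatives were a replicate block, RLE scaling, no low-count filter, DESeq2 1.42.0, other sets of libraries in the fit, removal of the libraries labelled DKO young 3 and DKO cSCC 3, and each library left out in turn; removal of those 2 libraries for the other gene lists was chosen after seeing the data. The edgeR fit with TMM scaling was tested on simulated data for some of the comparisons, and the alternatives were not.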

Additional observations from a re-analysis of the deposited data

How the results depend on the processing

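The direction and call of 998 of 1170 alternative values of member log2 fold changes stayed as in the edgeR quasi-likelihood tests reported above, 64 kept the sign and lost the call, 67 kept the sign and gained one, and 41 changed sign; the cause was not tested. Under DESeq2 the genes called were 200 in DKO against PKO cSCC, 3031 in PKO cSCC and 841 in DKO cSCC against WT old, 3440 and 2716 in PKO and DKO cSCC against young epidermis of the same genotype, 2327 in PKO against WT young (5219 in WKO), 328 in DKO against PKO young, 2186 in WT old against young and 480 for the difference of differences; members called were 1 in DKO against PKO cSCC, 7 and 2 in the tumours against WT old, 6 in PKO against WT young and 5 in WT old against young. Without a low-count filter the counts were 375 genes in DKO against PKO cSCC, 2285 and 853 in PKO and DKO cSCC against WT old, 990 in PKO against WT young, 1068 in WT old against young and 93 for the difference of differences, with 1, 6, 4, 6 and 4 members called in the first 5 of these. With all 20 libraries in the fit, 2 genes were called in DKO against PKO cSCC, 3876 genes and 7 members were called in PKO cSCC and 788 genes and 2 members in DKO cSCC against WT old, and 2199 genes were called in WKO against WT young, 3145 in DKO against WT young, 3 in PKO against WT young, and 154 genes and 1 member in WT old against young. With the 12 PKO and DKO libraries in the fit, 959 genes and 3 members in PKO cSCC against PKO young, and 595 genes and 1 member in DKO cSCC against DKO young. With RLE scaling, 3 genes were called in PKO against WT young.

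The replicate numbers were not treated as a pairing, since in no comparison were all same-numbered pairs correlated above 0.1 in their deviations from the group means (range -0.43 to 0.46; nearest were WKO and WT young, at 0.28, 0.17 and 0.092). With a replicate block, 2 genes were called in DKO against PKO cSCC, 0 in PKO cSCC against WT old, 903 genes and 3 members in DKO cSCC against DKO young, 1433 genes in PKO cSCC against PKO young, 2355 genes and 3 members in WKO against WT young (Cldn1 and Ocln lost, adjusted p = 0.0515 and 0.0596), and 0 genes and 0 members in WT old against young, and Cldn8 in DKO cSCC against DKO young stood at -0.0083.

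Without the libraries labelled DKO young 3 and DKO cSCC 3, the log2 fold change in DKO against PKO cSCC was -0.19 for Cdh1, -0.42 for Cldn8, -0.060 for Tjp3 and -0.42 for Marveld3, that of Cldn1 in DKO cSCC against WT old was -0.065, that of Cldn8 in DKO cSCC against DKO young was -0.38, and the difference of differences for Tjp3 was -0.63. With each library left out in turn, genes called ran from 0 to 1 in DKO against PKO cSCC, from 0 to 67 in PKO cSCC and from 0 to 2 in DKO cSCC against WT old, from 1144 to 2041 and from 265 to 1800 in PKO and DKO cSCC against young, from 893 to 3513 in WKO, 1 to 2998 in PKO and 1609 to 4045 in DKO against WT young, from 0 to 403 in DKO against PKO young, from 0 to 434 in WT old against young and from 0 to 11 for the difference of differences. Members called ran from 3 to 6 and from 1 to 6 in PKO and DKO cSCC against young, from 2 to 4 in WKO and 0 to 6 in PKO against WT young, from 0 to 2 in DKO against PKO young and from 0 to 3 in WT old against young. Log2 fold changes that crossed 0 ran, in DKO against PKO cSCC, from -0.19 to 0.37 for Cdh1, -0.29 to 0.60 for Cdh3, -0.42 to 1.52 for Cldn8, -0.42 to 0.84 for Marveld3 and -0.060 to 1.66 for Tjp3. Against WT old they ran from -0.59 to 0.11 for Cdh1 and -0.92 to 0.96 for Cldn1 in PKO cSCC, and from -0.51 to 0.27 for Cdh1 and -0.39 to 1.5 for Cldn1 in DKO cSCC. Cldn8 ran from -0.43 to 0.43 in DKO cSCC against DKO young and from -0.46 to 0.36 in PKO against WT young, Cdh3 from -0.19 to 0.18 in WKO and -0.30 to 0.062 in DKO against WT young, and Cldn1 from -0.55 to 1.30 in WT old against young. In DKO against PKO young, Ocln ran from -0.0024 to 1.13, Marveld3 from -0.13 to 0.82 and Tjp1 from -0.023 to 0.14, and for the difference of differences Cldn4 ran from -0.56 to 2.08, Cdh1 from -0.57 to 0.032, Marveld3 from -0.72 to 0.59 and Tjp3 from -0.56 to 1.18. Levels of single members near 1 CPM rest on few counts, which limits how small a difference between groups could be detected there.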
